A study of Canis lupus familiaris with 24 samples.

Results

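The comparison described here follows MDCK-NBL2 cells from the start of culture to the end of treatment with transforming growth factor beta (TGFb), a secreted signalling protein. MDCK cells are an established epithelial line from dog kidney, and NBL2 is one of the 2 sublines the study used. The members were taken by their labels: 3 untreated MDCK-NBL2 libraries at day 0, whose phenotype the submitters give as epithelial, and 3 libraries of the same subline treated with TGFb and collected at day 4, whose phenotype is given as full EMT. These are 6 of the 24 libraries of the series. The labels name no deletion, transgene or small interfering RNA in these 6 libraries, and they give replicate numbers 1 to 3 in each group without saying whether the replicates were separate cultures, so the p-values here rest on the spread among libraries, which may be technical. Every difference below is TGFb at day 4 against untreated at day 0. Treatment and 4 days of culture cannot be told apart in it. The 3 untreated MDCK-NBL2 libraries of day 4 are set beside it as values, with no test.

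TGFb binds a pair of receptor kinases at the cell surface, and these phosphorylate SMAD proteins, which enter the nucleus and change transcription. In epithelial cells the pathway is known for arresting the cell cycle and for driving the epithelial to mesenchymal transition (EMT), in which cells loosen their junctions, rebuild the actin cytoskeleton and deposit matrix. Transcription factors of the SNAI, ZEB, TWIST and PRRX families are the textbook regulators of that transition. In kidney the same pathway is studied as a driver of fibrosis.

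The stranded mRNA libraries held 12744114, 27066739 and 6783222 counted reads at day 0 and 6134929, 9413761 and 7434036 with TGFb, in replicate order. Levels are given as CPM, counts scaled to 1000000 per library, on library sizes scaled by trimmed mean of M values. The 10 most abundant genes took up 7.45 to 8.20% of the counts at day 0 and 10.9 to 15.1% with TGFb. On the first principal component of the 9 MDCK-NBL2 libraries outside the siRNA groups, which held 73.2% of the variance, the day 0 libraries lay from -56.9 to -38.0 and the treated ones from 60.9 to 76.7. Untreated day 4 replicates 1 and 3 lay at -32.4 and -58.6, but replicate 2 lay at 34.3, between the groups, so its values are given apart from the other 2 throughout. Among the day 0 libraries replicate 1 stood apart. For 34 genes expressed in the other subline, MDCK-II, and almost silent in untreated MDCK-NBL2 at day 4, it held a median of 10.7% of the MDCK-II level, against 0.276% and 0.347% in replicates 2 and 3. Of these genes 12 were tested, 5 were called higher and 2 lower. Values without this library are given where it changed a call. They are also given for many, but not all, of the genes whose difference it moved. TGFb replicate 1 carries a library number from another series of numbers than the other 5 libraries, and it too is left out in turn where it matters.

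Most of the measured transcriptome differed between the groups. Of 11347 genes with enough counts to test, 7437 (65.5%) had an adjusted p under 0.05 in edgeR's quasi-likelihood test, 3851 (33.9%) higher and 3586 (31.6%) lower with TGFb. At least 2-fold differences were called for 1719 genes (15.1%) higher and 1449 (12.8%) lower. At an unadjusted p under 0.05 the share was 68.5%, and in 71.5% of tested genes the 2 groups of 3 did not overlap. The median log2 difference over all tested genes was 0.01. Counts for a gene list are therefore read against these shares: a list with shares near 33.9% higher and 31.6% lower is like the tested transcriptome as a whole. A gene near 0 in either group passed the count filter through the other group, so it could be called in a single direction. For lists with many such genes the shares are not a like comparison. In bulk libraries, fewer cells expressing a gene and less RNA per cell cannot be told apart.

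**Figure D1:**
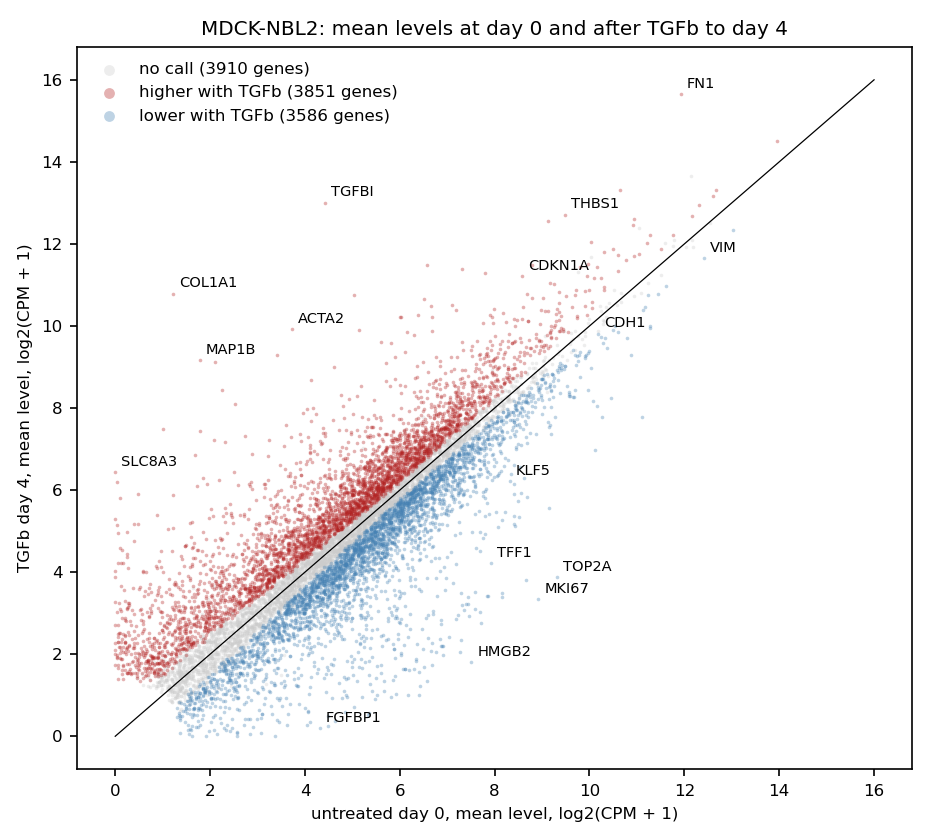
Mean level of each of the 11347 tested genes in 3 untreated day 0 libraries (horizontal axis) and 3 TGFb day 4 libraries (vertical axis), both as log2(CPM + 1), coloured by call at an adjusted p under 0.05. The line marks equal levels. FN1, TGFBI, COL1A1 and SLC8A3 lie far above it, and MKI67, TOP2A, HMGB2 and FGFBP1 far below it.

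Of the 10 largest rises, 8 were of genes with 3 counts or fewer over the day 0 group. SLC8A3, a sodium/calcium exchanger, had no counts in any day 0 library and 119, 49.99 and 88.96 CPM in the treated replicates, at least 1383-fold higher when day 0 is set at a floor of 3 counts over the group. GASK1B (a Golgi-associated kinase family member) and the bile acid carrier family gene SLC10A4 also had no counts at day 0. They reached 56.4, 38.2 and 20.2 CPM and 15.3, 14.3 and 16.4 CPM, which on the same floor is at least 633-fold higher for GASK1B and at least 262-fold higher for SLC10A4. The potassium channel gene KCNK12 went from 0.0691, 0 and 0 CPM to 111, 70.99 and 33.6 CPM, and the GTPase-activating gene TAGAP from 0.207, 0 and 0 CPM to 67.1, 40.04 and 58.9 CPM. With 1 count at day 0, the ratio for KCNK12 was 3542 (95% exact counting interval 635 to 140005), and with 3 counts that for TAGAP was 913 (312 to 4435). These intervals cover counting error only. PWWP3B (42.2, 26.7 and 20.3 CPM with TGFb), STMND1 (20.6, 8.49 and 23.5 CPM) and the smooth muscle actin gene ACTG2 (20.5, 23.3 and 25.9 CPM) had 1 to 3 counts each over the day 0 group. The 10 were picked among called genes whose groups did not overlap, so their separation was set by the choice. Of all tested genes, 71.5% had groups that did not overlap. In these 8 genes untreated day 4 replicates 1 and 3 stayed at or below 0.122 CPM. COL1A1 and TGFBI, the other 2 of the 10, are described with the matrix.

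The 10 largest falls were led by FGFBP1, which encodes a carrier that releases fibroblast growth factors from the matrix. It was at 10.1, 30.5 and 16.01 CPM at day 0 and 0.191, 0.121 and 0.149 CPM with TGFb. The day 0 to TGFb ratio was 152 (52.1 to 741) on 3 treated counts. Its level in untreated day 4 replicates 1 and 3 was 42.4 and 31.3 CPM, above all day 0 libraries. The other 9 were KIF18B, E2F8, TROAP, CCNB3, HMGB2, CCNB2, HJURP, KNSTRN and KIF22. Most of them are genes of mitosis and cell cycle transcription, and their log2 differences ran from -6.42 for KIF18B to -5.85 for KIF22. Without TGFb replicate 3 the fitted differences of these genes other than TROAP ran from -11.27 for CCNB3 to -6.55 for HJURP. The CCNB3 difference was -6.27 in the main fit, and -5.84 and -5.55 without TGFb replicate 1 or 2. Its value of -11.27 therefore rests on leaving out replicate 3 and is not taken as the size of the fall.

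The genes of the TGFb pathway itself rose more often than they fell. Of 18 tested ligands, carriers and antagonists, 14 rose and 2 fell (median log2 difference 1.05), and of 24 receptors, SMADs and feedback genes, 14 rose and 3 fell (median 0.45). At least 2-fold rises made up 9 and 9 of these. Without TGFb replicate 1, or with all 24 libraries in the fit, 1 member of each list fell. Among the ligands, TGFB1 was at 16.7, 10.2 and 11.1 CPM at day 0 and 34.8, 28.4 and 23.3 CPM with TGFb (log2 difference 1.18, SE 0.22, adjusted p = 0.00198), with no overlap between the groups. TGFB2 rose by less (log2 difference 0.68, SE 0.15, adjusted p = 0.00407). TGFB3 went from 0.138, 0 and 0.274 CPM to 11.1, 14.9 and 6.73 CPM (log2 difference 6.90, SE 0.67, adjusted p = 6.11e-05), so the gene was almost silent before treatment. The TGFB3 difference was 5.77 and 7.60 without day 0 replicate 2 or 3. TGFB3 passed the count filter through the treated group, so no fall could be called for it. Latent TGFb is held in the matrix by LTBP proteins, and these moved in both directions. LTBP1 was at 974, 989 and 1152 CPM and then 4231, 4429.9 and 3933 CPM (log2 difference 2.02, SE 0.13, adjusted p = 1.06e-05), whereas LTBP4 fell (log2 difference -1.79, adjusted p = 7.57e-04). LTBP2 had 0.0691, 0.0338 and 0 CPM at day 0 and 4.397, 3.03 and 4.34 CPM with TGFb. BMP1, the protease that processes procollagen and releases latent TGFb, rose (log2 difference 3.36, adjusted p = 1.25e-05), as did BMP7 (log2 difference 0.61, adjusted p = 6.14e-04). BMP4 was called lower by a log2 difference of -0.47 (adjusted p = 0.0238), and 3 of the 6 fits that leave out 1 library (day 0 replicate 3, TGFb replicate 1 or TGFb replicate 2) lost that call.

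Among the receptor kinase genes described here, TGFBR2, ACVR1B and ACVR2B were called lower and TGFBR1 was not called. TGFBR2, the ligand-binding type II receptor, was at 314, 288 and 296 CPM at day 0 and 224, 185 and 243 CPM with TGFb (log2 difference -0.46, SE 0.11, adjusted p = 0.00682), lower in every treated library, although with all 24 libraries in the fit the adjusted p was 0.13. TGFBR1, the type I signalling receptor, was at 276, 329.6 and 383 and 385, 397 and 469 CPM and was not called (log2 difference 0.34, SE 0.14, adjusted p = 0.0578). It was called higher without day 0 replicate 3 (log2 difference 0.45, adjusted p = 0.0236) and by the DESeq2 Wald test (adjusted p = 0.0428). The activin receptor genes ACVR1B and ACVR2B fell (log2 difference -0.71, adjusted p = 0.021, and -1.06, adjusted p = 0.0198), and each lost its call in 3 of 6 leave-one-out fits, among them those without day 0 replicate 2 and without TGFb replicate 1. SMAD3, a transducer of the signal, was not called (log2 difference 0.12, SE 0.10, adjusted p = 0.314). Several inhibitors of the pathway rose. SMAD7, the inhibitory SMAD that TGFb induces as negative feedback, was at 9.74, 7.602 and 8.07 CPM at day 0 and 39.6, 42.4 and 39.6 CPM with TGFb (log2 difference 2.26, SE 0.13, adjusted p = 6.73e-06). BAMBI, a receptor decoy, went from 7.26, 3.01 and 3.97 CPM to 252, 264 and 298 CPM (log2 difference 5.87, SE 0.30, adjusted p = 5.69e-06). The SMAD corepressor SKIL rose (log2 difference 1.26, adjusted p = 1.08e-05), and so did PMEPA1 (log2 difference 0.83, adjusted p = 4.72e-04, and 0.0589 with all 24 libraries in the fit). ID3 and ID4, inhibitors of basic helix-loop-helix factors and classical BMP targets, rose (log2 differences 2.65 and 2.82, adjusted p = 5.12e-06 and 2.37e-04). Untreated day 4 replicates 1 and 3 had SMAD7 at 9.41 and 5.57 CPM and BAMBI at 1.87 and 2.01 CPM, no higher than the highest day 0 library, and replicate 2 had 45.6 and 137 CPM.

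SNAI2, PRRX2, SOX4 and RUNX1 rose among the EMT transcription factors, while SNAI1 did not pass the test. Of 12 tested factors 5 rose, each at least 2-fold, and 1 fell. The fifth rise was PRRX1, whose call was marginal. This 41.7% is to be read against 33.9% of all tested genes. SNAI2, a repressor of epithelial genes, was at 41.5, 22.1 and 16.1 CPM at day 0 and 147, 142 and 107 CPM with TGFb (log2 difference 2.30, SE 0.31, adjusted p = 3.43e-04). In untreated day 4 replicates 1 and 3 it was at 5.54 and 9.83 CPM, below all day 0 libraries. SNAI1, its close relative, was at 17.9, 19.5 and 22.3 CPM and then 27.5, 17.96 and 18.5 CPM, overlapping groups with a log2 difference of 0.10 (SE 0.18, adjusted p = 0.664). PRRX2, a paired-type homeobox factor, went from 7.39, 4.59 and 3.83 CPM to 28.5, 29.1 and 29.2 CPM (log2 difference 2.43, SE 0.22, adjusted p = 4.23e-05), with treated libraries almost equal to each other. SOX4 was at 17.8, 12.8 and 13.8 CPM and 91.2, 66.01 and 46.05 CPM (log2 difference 2.19, SE 0.25, adjusted p = 1.35e-04). RUNX1, a SMAD partner, rose (log2 difference 1.61, adjusted p = 3.00e-04), and ETS1 fell (log2 difference -0.63, adjusted p = 0.0015). FOXC2, TCF3, RUNX2 and SOX9 had log2 differences of 0.03, 0.19, 0.20 and 0.34 and were not called (adjusted p = 0.879, 0.139, 0.159 and 0.177). Without TGFb replicate 3, RUNX2 and SOX9 were called higher (log2 differences 0.31 and 0.54, adjusted p = 0.0194 and 0.0164).

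PRRX1 and ZEB1 depended on which libraries were counted. PRRX1, which the series also targets by siRNA in other libraries, was at 7.05, 0.676 and 0.41 CPM at day 0 and 37.1, 8.86 and 5.68 CPM with TGFb. Treated replicate 3 lay below day 0 replicate 1, so the groups overlapped (log2 difference 2.60, SE 1.00, adjusted p = 0.0487). Without day 0 replicate 1, the library with more reads of MDCK-II genes, the log2 difference was 4.72 (adjusted p = 0.00272). Without TGFb replicate 1 it was 1.40 (adjusted p = 0.253), and without day 0 replicate 2, day 0 replicate 3 or TGFb replicate 2 it was 1.96, 2.24 and 2.93 (adjusted p = 0.128, 0.111 and 0.058). The DESeq2 Wald test gave PRRX1 an adjusted p of 0.0755. ZEB1, a repressor of CDH1, was at 5.805, 0.845 and 0.958 CPM and 12.2, 4.004 and 4.34 CPM and was not called (log2 difference 1.38, SE 0.77, adjusted p = 0.148), but it was without day 0 replicate 1 (log2 difference 2.89, adjusted p = 0.00249). ZEB2, its paralog, had too few counts for the test, with 0.691, 0 and 0 CPM at day 0 and 3.44, 2.55 and 1.05 CPM with TGFb. TCF4, TWIST2, GSC and KLF8 were also too low to test.

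**Figure D2:**
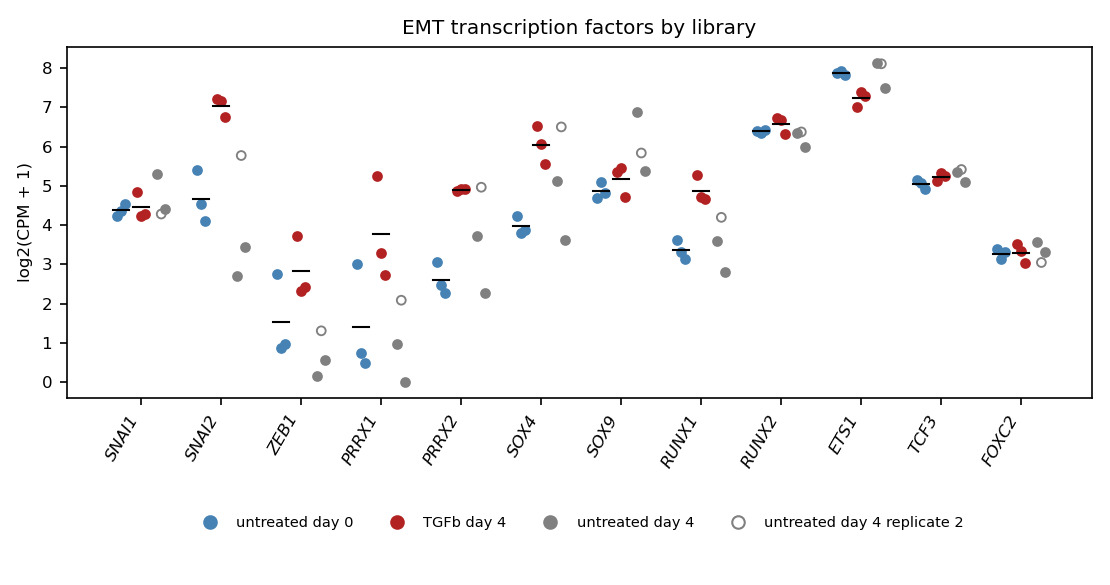
Levels of the 12 tested EMT transcription factors as log2(CPM + 1) in 3 untreated day 0 libraries, 3 TGFb day 4 libraries and 3 untreated day 4 libraries, with black bars at the group means of the first 2 groups and an open symbol for untreated day 4 replicate 2. SNAI2, PRRX2, SOX4 and RUNX1 are separated between day 0 and TGFb, while PRRX1 and ZEB1 each have 1 high day 0 library, replicate 1.

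Epithelial genes did not fall from day 0 as a group. Of 30 tested junction and adhesion genes 10 rose and 9 fell (33.3% and 30%, median log2 difference 0.03), near the shares of all tested genes, and only 2 of the falls reached 2-fold. CDH1, which encodes the adherens junction protein E-cadherin, was at 1012, 1306 and 1137 CPM at day 0 and 879, 876 and 938 CPM with TGFb (log2 difference -0.36, SE 0.12, adjusted p = 0.0274). The treated libraries were all lower, yet leaving out day 0 replicate 2, TGFb replicate 1 or TGFb replicate 2 gave an adjusted p of 0.101, 0.0653 and 0.088, and the fit to all 24 libraries gave 0.0812. EPCAM, the epithelial cell adhesion molecule, went from 369, 435 and 523 CPM to 219, 229.5 and 262 CPM (log2 difference -0.90, SE 0.14, adjusted p = 7.12e-04). The 2 falls of at least 2-fold were of the tight junction genes TJP3 (50.6, 50.1 and 40.1 CPM to 18.4, 23.5 and 17.5 CPM, log2 difference -1.24, SE 0.15, adjusted p = 1.74e-04) and CLDN3 (log2 difference -1.13, adjusted p = 0.00431). DSG2, a desmosomal cadherin, fell by a log2 difference of -0.57 (adjusted p = 0.00125). In the other direction, DSP, which anchors desmosomes to keratin, was at 1153, 1009.6 and 854 CPM and then 3482, 2677 and 2628 CPM (log2 difference 1.54, SE 0.17, adjusted p = 1.10e-04). The tight junction genes CLDN4 and F11R rose (log2 differences 1.36 and 0.85, adjusted p = 1.45e-04 and 1.33e-04). OCLN was not called (log2 difference 0.19, adjusted p = 0.11). As median log2 differences from day 0, the junction list lay at -0.15 to 0.17 in the treated libraries. It lay at 0.65 and 0.08 in untreated day 4 replicates 1 and 3 and at 0.40 in replicate 2. CDH1 was at 1781 and 1131 CPM in untreated day 4 replicates 1 and 3, and EPCAM at 666 and 552 CPM. Replicate 2 had 1157.5 and 551.7 CPM, and all these CDH1 and EPCAM values lay above the treated libraries.

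Regulators of the epithelial state split in the same way. Of 25 tested regulators and keratins 9 rose and 8 fell (median log2 difference 0.02). The list lay at 0.05 to 0.19 in the treated libraries, as median log2 differences from day 0. Untreated day 4 replicates 1 and 3 lay at 0.58 and 0.14, and replicate 2 at 0.34. KLF5, a factor of proliferating epithelium, was at 289, 349 and 314 CPM at day 0 and 76.7, 72.1 and 71.02 CPM with TGFb (log2 difference -2.12, SE 0.10, adjusted p = 4.63e-06). In untreated day 4 replicates 1 and 3 it was at 948 and 418 CPM, above day 0. GRHL2, an activator of junction genes, went from 45.1, 62.3 and 58.8 CPM to 20.1, 22.9 and 24.5 CPM (log2 difference -1.29, SE 0.15, adjusted p = 1.32e-04), and ELF3 from 69.5, 102 and 82.5 CPM to 22.2, 25.1 and 35.7 CPM (log2 difference -1.61, SE 0.20, adjusted p = 2.20e-04). In those untreated day 4 libraries GRHL2 was at 126 and 84.7 CPM, above day 0, and ELF3 at 323 and 99.2 CPM. The epithelial splicing regulators ESRP1 and ESRP2 fell (log2 differences -0.40 and -0.47, adjusted p = 0.00798 and 0.0038). Other epithelial factors rose, among them TFAP2A and OVOL2, an opponent of EMT factors (log2 differences 1.39 and 1.02, adjusted p = 1.77e-05 and 8.31e-05). The basal keratin gene KRT14 went from 52.8, 153 and 96.9 CPM to 798, 1243 and 779 CPM (log2 difference 3.21, SE 0.38, adjusted p = 1.75e-04), whereas KRT19, a keratin of simple epithelium, was not called (log2 difference 0.36, adjusted p = 0.119) but was when tested without day 0 replicate 2 (log2 difference 0.55, adjusted p = 0.0281).

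Genes of the apical machinery moved in both directions. Of 20 tested polarity genes 7 fell and 4 rose (35% and 20%, median log2 difference -0.15). MAL2 and MAL, which carry cargo to the apical membrane, fell (log2 differences -2.07 and -0.997, adjusted p = 3.96e-05 and 6.80e-04). EZR, the linker of microvilli to actin, was at 1551, 2130.3 and 1662 CPM at day 0 and 766, 851 and 899 CPM with TGFb (log2 difference -1.09, SE 0.15, adjusted p = 3.32e-04), and PODXL, an apical sialomucin, fell (log2 difference -1.07, adjusted p = 0.00554). MALL, a relative of MAL outside the list, went from 40.01, 115 and 42.6 CPM to 0.382, 2.31 and 3.59 CPM (log2 difference -4.91, SE 0.62, adjusted p = 2.40e-04, and -4.23 without day 0 replicate 2). The endosome gene RAB11FIP1 and the tight junction scaffold gene PATJ rose (log2 differences 1.63 and 1.03, adjusted p = 6.42e-06 and 1.07e-04).

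Contractile genes rose, and the classical mesenchymal marker VIM fell. Of 20 tested mesenchymal cytoskeleton and adhesion genes 16 rose and 2 fell (median log2 difference 1.88), 12 of the rises by at least 2-fold. ACTA2, which encodes the smooth muscle actin of myofibroblasts, was at 6.36, 7.704 and 22.4 CPM at day 0 and 688, 1138 and 1087 CPM with TGFb (log2 difference 6.42, SE 0.51, adjusted p = 2.53e-05). CALD1, an actin and myosin regulator, went from 10.7, 4.02 and 14.2 CPM to 546, 623 and 717 CPM (log2 difference 6.13, SE 0.43, adjusted p = 1.49e-05). TAGLN, another smooth muscle actin binder, was at 9.88, 12.5 and 80.5 CPM and then 665, 1196 and 1001 CPM (log2 difference 4.87, SE 0.81, adjusted p = 0.00102), with day 0 replicate 3 above the other 2. Without that library the log2 differences of TAGLN and ACTA2 were 6.39 and 7.09. The groups did not overlap in any of these 3 genes. In untreated day 4 replicates 1 and 3 ACTA2, CALD1 and TAGLN were at 0.692 and 1.54 CPM, 0.774 and 1.66 CPM and 1.47 and 1.78 CPM, below day 0. The focal adhesion genes VCL and TNS1 rose (log2 differences 1.85 and 2.75, adjusted p = 1.05e-05 and 1.83e-05).

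VIM, the intermediate filament gene used to mark mesenchymal cells, was at 6206, 5503 and 4602 CPM at day 0 and 3045, 3166 and 3514 CPM with TGFb (log2 difference -0.75, SE 0.15, adjusted p = 0.00281). Every treated library lay below every day 0 library, and each of the 6 leave-one-out fits kept the call. S100A4, another mesenchymal marker, went from 21.6, 32.4 and 15.9 CPM to 6.5, 4.61 and 5.98 CPM (log2 difference -2.07, SE 0.29, adjusted p = 3.86e-04). CDH2, which encodes N-cadherin, was at 19.6, 6.99 and 5.34 CPM and 10.3, 2.67 and 4.63 CPM, overlapping groups that were not called (log2 difference -0.94, SE 0.60, adjusted p = 0.197). Without day 0 replicate 1, its highest library, the log2 difference was -0.19 (adjusted p = 0.731). The CDH1 fall described above and the CDH2 values are mRNA levels, and protein was not measured in these files.

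The wider actin list moved with the contractile genes. Of 39 tested actin and focal adhesion genes 23 rose and 4 fell (median log2 difference 0.71). RHOB, a small GTPase of stress fibres and endosomes, was at 57.1, 45.04 and 50.8 CPM at day 0 and 664, 558 and 418 CPM with TGFb (log2 difference 3.42, SE 0.19, adjusted p = 6.42e-06). FLNC, an actin crosslinker of muscle, went from 7.26, 2.16 and 1.78 CPM to 475, 293 and 265 CPM (log2 difference 6.51, SE 0.51, adjusted p = 2.24e-05, and 7.37 without day 0 replicate 1), and the non-muscle myosin gene MYH9 rose (log2 difference 1.67, adjusted p = 2.25e-05). The falls included the formin gene DIAPH3, at 92.8, 126 and 130.5 CPM and then 1.15, 4.37 and 11.5 CPM (log2 difference -4.32, SE 0.47, adjusted p = 1.11e-04, and -5.26 without TGFb replicate 3), and TLN2, the less common talin (log2 difference -1.45, adjusted p = 7.32e-04).

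**Figure D3:**
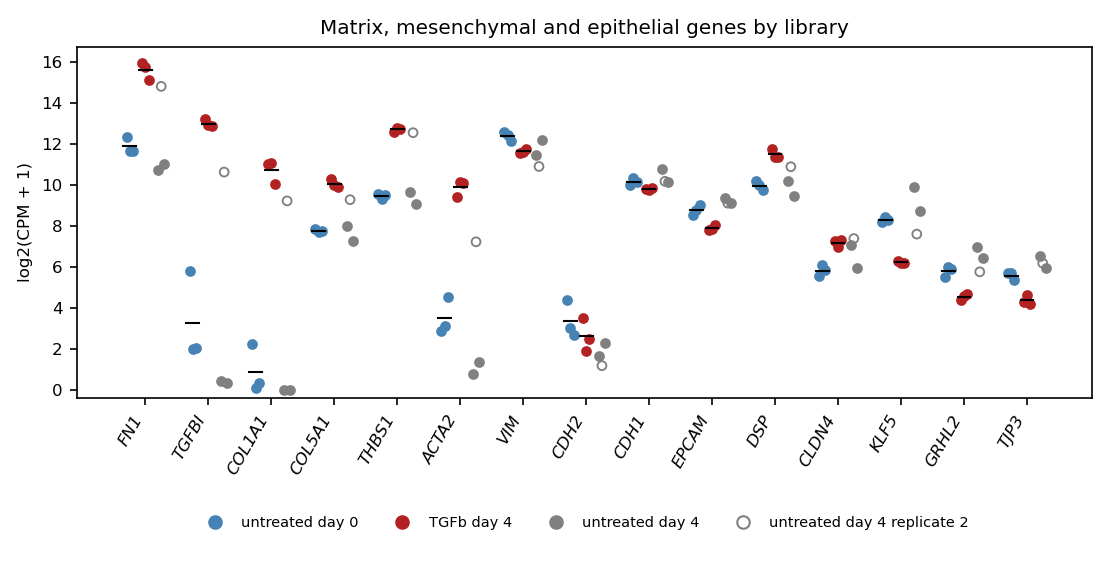
Levels of 15 matrix, mesenchymal and epithelial genes as log2(CPM + 1) in the same 9 libraries, with black bars at the means of the day 0 and TGFb groups. FN1, TGFBI, COL1A1, THBS1 and ACTA2 are raised with TGFb, VIM is lowered, and DSP and CLDN4 rise while KLF5, GRHL2 and TJP3 fall.

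Matrix genes held some of the largest rises in the comparison. Of 18 tested collagen genes of 27 in the table, 13 rose, all at least 2-fold, and none fell (median log2 difference 3.14). Of 29 tested matrix glycoprotein and proteoglycan genes of 54 in the table, 22 rose and 1 fell (median 1.51). Among the collagens, COL1A1 and COL3A1 were near 0 in day 0 replicates 2 and 3 and passed the count filter through the treated group. No fall could be called for such genes, so these shares and those of all tested genes are not a like comparison. FN1, which encodes fibronectin, was at 5197, 3219 and 3229.6 CPM at day 0 and 62905, 54799 and 36262 CPM with TGFb (log2 difference 3.73, SE 0.31, adjusted p = 3.20e-05). It took up 0.590%, 0.352% and 0.348% of all counted reads at day 0 and 5.36%, 4.80% and 3.26% with TGFb. TGFBI, a matrix protein named for its induction by TGFb, went from 55.4, 2.91 and 3.15 CPM to 9482, 7769 and 7455 CPM (log2 difference 8.63, SE 1.27, adjusted p = 5.25e-04). Day 0 replicate 1 was far above the other 2, and without it the log2 difference was 11.42 (adjusted p = 8.58e-07). COL1A1 and COL1A2 encode the chains of fibrillar collagen I. COL1A1 was at 3.66, 0.0676 and 0.274 CPM at day 0 and 2098, 2139 and 1057 CPM with TGFb (log2 difference 10.46, SE 0.95, adjusted p = 4.50e-05), and without day 0 replicate 1 or 2 the log2 difference was 13.83 and 9.55. COL1A2 went from 68.1, 14.9 and 12.6 CPM to 2806, 1377 and 1019 CPM (log2 difference 5.75, SE 0.77, adjusted p = 3.22e-04, and 6.95 without day 0 replicate 1). The groups did not overlap in any of these 4 genes, which for TGFBI and COL1A1 was set by their choice among the largest rises.

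Other collagens rose with a wider range. COL5A1, a fibril initiator, was at 228, 205 and 212 CPM and then 1238, 1034 and 945 CPM (log2 difference 2.32, SE 0.13, adjusted p = 6.42e-06), while its partner COL5A2 was not called (2568, 3483 and 4454 CPM and 4306, 4682 and 4228 CPM, log2 difference 0.33, adjusted p = 0.175). COL5A2 was called higher without day 0 replicate 3 (log2 difference 0.53, adjusted p = 0.0284). COL12A1, a fibril-associated collagen, went from 225, 396 and 1054 CPM to 5518, 6681 and 5883 CPM (log2 difference 3.44, SE 0.52, adjusted p = 6.41e-04, and 4.27 without day 0 replicate 3). COL8A1 and COL27A1 rose (log2 differences 5.85 and 4.69, adjusted p = 1.19e-05 and 3.31e-05). COL3A1 was uneven among treated libraries, at 104, 6.31 and 11.96 CPM, against 2.49, 0.0338 and 0 CPM at day 0 (log2 difference 5.64, SE 1.43, adjusted p = 0.00836). The COL3A1 difference was 10 without day 0 replicate 1, 4.66 without day 0 replicate 2 and 3.44 without TGFb replicate 1 (adjusted p = 0.0046, 0.0317 and 0.0362). The basement membrane gene COL4A1 was not called (log2 difference 0.72, adjusted p = 0.142), but it was called higher without day 0 replicate 1 (log2 difference 1.32, adjusted p = 0.00281). In untreated day 4 replicates 1 and 3 the collagen list lay at median log2 differences from day 0 of -0.42 and -0.64, against 2.17 to 2.60 in the treated libraries, and replicate 2 lay at 1.42. Without day 0 replicate 1, 17 of 19 tested collagens rose.

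THBS1, a matricellular protein that activates latent TGFb, was at 765, 638 and 739 CPM at day 0 and 6115, 7132 and 6924 CPM with TGFb (log2 difference 3.23, SE 0.15, adjusted p = 4.50e-06). NID2, which links laminin and collagen networks, rose (log2 difference 2.11, adjusted p = 1.87e-05), and the laminin genes LAMA3 and LAMA4 did too (log2 differences 1.65 and 5.58, adjusted p = 1.82e-04 and 0.00179). The LAMA4 difference was 7.62 without day 0 replicate 1, 4.83 without day 0 replicate 2 and 4.32 without TGFb replicate 1. IGFBP5, an insulin-like growth factor binding protein, went from 0.276, 0.0676 and 0.274 CPM to 21.03, 18.7 and 8.67 CPM (log2 difference 6.55, SE 0.54, adjusted p = 3.06e-05, and 5.79 without day 0 replicate 2). FSTL1, a secreted glycoprotein gene, was at 148, 44.4 and 79.4 CPM and then 1614, 1749 and 1507 CPM (log2 difference 4.17, SE 0.41, adjusted p = 6.74e-05). The fall in the glycoprotein list was FBLN1 (log2 difference -1.10, adjusted p = 9.74e-04), and 2 members fell when day 0 replicate 1 or TGFb replicate 1 was left out.

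Enzymes that build, crosslink and cut matrix also rose, with exceptions among the protease inhibitors. Of 37 tested genes 25 rose and 5 fell (median log2 difference 1.15). ADAM19, a membrane protease, was at 1.31, 0.642 and 1.09 CPM at day 0 and 255, 133 and 146 CPM with TGFb (log2 difference 7.57, SE 0.38, adjusted p = 5.66e-06). The collagen lysyl hydroxylase genes PLOD1 and PLOD2 rose (log2 differences 2.51 and 3.70, adjusted p = 1.21e-05 and 3.52e-05), and the crosslinking oxidase genes LOX and LOXL2 did too (log2 differences 1.77 and 4, adjusted p = 6.64e-04 and 6.07e-04), LOXL2 by 5.29 without day 0 replicate 1. MMP14, a membrane metalloprotease, and PLAU, the urokinase gene, rose (log2 differences 2.62 and 1.76, adjusted p = 2.82e-04 and 1.50e-04). MMP9 was not called, with 19.97, 0.507 and 3.56 CPM at day 0, where replicate 1 was high, and 1.15, 1.94 and 1.196 CPM with TGFb (log2 difference -2.44, SE 1.22, adjusted p = 0.112). It was called lower without day 0 replicate 2 (log2 difference -3.05, adjusted p = 0.00868). TIMP1 and SERPINE2 were among the falls. TIMP1, a metalloprotease inhibitor, was at 63.2, 63.96 and 31.2 CPM at day 0 and 6.12, 6.31 and 5.68 CPM with TGFb (log2 difference -3.14, SE 0.30, adjusted p = 5.42e-05), whereas TIMP2 rose (log2 difference 2.25, adjusted p = 2.15e-05). SERPINE2, a thrombin and urokinase inhibitor, went from 255, 478 and 366 CPM to 37.5, 41.99 and 39.02 CPM (log2 difference -3.21, SE 0.22, adjusted p = 1.45e-05). The groups did not overlap in TIMP1 or SERPINE2.

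Integrins, the receptors for matrix, rose in 10 of 14 tested members and fell in 1 (median log2 difference 1.36). ITGA5, the fibronectin-binding subunit, was at 420.3, 111 and 129 CPM at day 0 and 3097, 2260.4 and 2161 CPM with TGFb (log2 difference 3.51, SE 0.51, adjusted p = 5.27e-04, and 4.38 without day 0 replicate 1), and ITGAV at 476, 348 and 410.1 CPM and 1913, 1700.3 and 1629 CPM (log2 difference 2.09, SE 0.14, adjusted p = 1.37e-05). ITGB5 and ITGB6, partners of ITGAV that bind latent TGFb, rose (log2 differences 1.83 and 2.31, adjusted p = 6.42e-06 and 1.19e-04). The collagen-binding ITGA1 and laminin-binding ITGA6 rose (log2 differences 2.46 and 1.74, adjusted p = 7.56e-06 and 7.35e-06). ITGA9 was the member that fell (log2 difference -1.12, adjusted p = 0.0018), while 2 members fell without TGFb replicate 1 and 3 with all 24 libraries in the fit. The integrin list lay at -0.21 and -0.35 in untreated day 4 replicates 1 and 3 and at 1.07 to 1.37 in the treated libraries, as median log2 differences from day 0.

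Targets of YAP, a transcriptional coactivator that responds to tension, rose in 13 of 22 tested members and fell in 3 (median log2 difference 0.46). ANKRD1 was at 13.6, 14.9 and 17.8 CPM at day 0 and 200, 289 and 259.6 CPM with TGFb (log2 difference 4.03, SE 0.17, adjusted p = 4.08e-06). CCN2, the connective tissue growth factor gene, went from 10.2, 14.5 and 17.1 CPM to 64.2, 78.02 and 64.9 CPM (log2 difference 2.33, SE 0.18, adjusted p = 2.23e-05). Untreated day 4 replicate 1 had CCN2 at 109 CPM, above the treated libraries, and replicate 3 had it at 14.4 CPM. YAP1 itself rose (log2 difference 0.37, adjusted p = 0.0103), and its DNA-binding partner TEAD4 fell (log2 difference -0.53, adjusted p = 0.0243), a call lost without day 0 replicate 2, TGFb replicate 1 or TGFb replicate 3. AJUBA, a regulator of the pathway, fell (log2 difference -1.20, adjusted p = 2.14e-04).

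Wnt genes were mixed. Of 22 tested ligands, receptors and feedback genes 11 rose and 6 fell (median log2 difference 0.23). The ligand gene WNT5A, which signals mainly without beta-catenin, was at 4.63, 0.811 and 2.33 CPM at day 0 and 42.6, 27.9 and 21.4 CPM with TGFb (log2 difference 3.66, SE 0.54, adjusted p = 5.55e-04), and WNT5B at 38.8, 9.63 and 20.9 CPM and 234, 205 and 189 CPM (log2 difference 3.19, SE 0.43, adjusted p = 3.54e-04). WNT2 rose (log2 difference 3.52, adjusted p = 1.31e-04) and WNT7A fell (log2 difference -1.06, adjusted p = 0.0048, and 0.0917 with all 24 libraries in the fit). The differences of WNT5A, WNT5B and WNT2 were 4.65, 3.87 and 4.25 without day 0 replicate 1, and without day 0 replicate 2 that of WNT5A was 3.04. Among the receptors FZD4 and FZD1 rose (log2 differences 3.15 and 2.61, adjusted p = 7.72e-06 and 1.38e-04), and FZD5 and the R-spondin receptor gene LGR4 fell (log2 differences -1.54 and -1.05, adjusted p = 2.10e-04 and 1.34e-04). AXIN2, the common readout of beta-catenin activity, was not called (log2 difference -0.62, adjusted p = 0.162), but it was called lower without day 0 replicate 1 (log2 difference -0.95, adjusted p = 0.00303). The beta-catenin partner TCF7 fell (log2 difference -1.08, adjusted p = 7.86e-04).

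Growth factor genes moved in both directions, with 13 of 32 tested members higher and 7 lower (40.6% and 21.9%). FGF1, an acidic fibroblast growth factor, was at 4.84, 0.71 and 1.78 CPM at day 0 and 209, 177 and 131 CPM with TGFb (log2 difference 6.25, SE 0.54, adjusted p = 3.73e-05). Its epithelial receptor gene FGFR2 fell (log2 difference -1.12, adjusted p = 5.57e-04), and so did MET, the hepatocyte growth factor receptor gene (log2 difference -1.05, adjusted p = 9.69e-05). PDGFRA, a receptor of mesenchymal cells, went from 1.18, 0.946 and 1.92 CPM to 17.8, 8.49 and 10.3 CPM (log2 difference 3.28, SE 0.37, adjusted p = 1.43e-04), and was at 29.2 and 2.605 CPM in untreated day 4 replicates 1 and 3. PTHLH, a parathyroid hormone-related peptide gene, was at 9.68, 1.11 and 1.09 CPM and then 201, 119 and 111 CPM (log2 difference 5.18, SE 0.71, adjusted p = 3.66e-04). The FGF1 and PTHLH differences were 7.46 and 6.99 without day 0 replicate 1, and 5.56 and 4.55 without day 0 replicate 2. Cytokine, chemokine and NF-kB genes had 6 rises and 5 falls among 17 tested, and 2 falls among 21 with all 24 libraries in the fit. IL11, a fibrogenic cytokine, went from 1.31, 0.406 and 0.958 CPM to 21.99, 20.3 and 12.9 CPM (log2 difference 4.51, SE 0.40, adjusted p = 4.20e-05), and ICAM1 rose (log2 difference 2.16, adjusted p = 7.19e-06). IL1A rose (log2 difference 5.12, adjusted p = 3.65e-04), whereas PTGS2, the inducible cyclooxygenase gene, was not called (log2 difference 0.68, adjusted p = 0.0691) but was when tested without day 0 replicate 1 (log2 difference 1.13, adjusted p = 3.14e-04). The IL1A difference was 6.96 without day 0 replicate 1 and 4.29 without day 0 replicate 2. The NF-kB inhibitors NFKBIA and TNFAIP3 fell (log2 differences -1.10 and -0.90, adjusted p = 0.00219 and 5.06e-04), but with all 24 libraries in the fit their adjusted p was 0.0643 and 0.126. IL1RL1, the interleukin 33 receptor gene, fell from 44.5, 48.9 and 86.1 CPM to 0, 0.121 and 2.99 CPM (log2 difference -5.81, SE 0.66, adjusted p = 1.43e-04, and -5.16 and -9.47 without TGFb replicate 2 or 3), and was at 6.15 and 2.37 CPM in untreated day 4 replicates 1 and 3.

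Proliferation genes fell without exception in the lists used. All 32 of 32 tested mitosis genes fell, each at least 2-fold (median log2 difference -4.39), as did all 34 of 34 tested DNA replication genes (median -2.99). MKI67, which marks cycling cells, was at 392, 524 and 537 CPM at day 0 and 2.68, 7.402 and 17.2 CPM with TGFb (log2 difference -5.70, SE 0.47, adjusted p = 3.10e-05). Among the treated libraries replicate 1 was lowest and replicate 3 highest, and all were far below day 0. Without TGFb replicate 3 the MKI67 difference was -6.50. TOP2A, the topoisomerase of chromosome condensation, went from 426, 693 and 786 CPM to 6.5, 13.7 and 21.1 CPM (log2 difference -5.50, SE 0.41, adjusted p = 1.83e-05). The spindle genes TPX2 and TTK and the kinetochore gene NDC80 fell (log2 differences -4.18, -5.11 and -4.25, adjusted p = 4.12e-06, 6.42e-06 and 6.42e-06). The DNA replication genes CDC6 and MCM10 fell (log2 differences -4.43 and -3.88, adjusted p = 3.72e-06 and 3.72e-06), as did RFC4, a clamp loader subunit (log2 difference -3.04, adjusted p = 3.80e-06). HMGA1, a chromatin protein of proliferating cells, was at 1123, 1239 and 947 CPM at day 0 and 107, 129 and 138 CPM with TGFb (log2 difference -3.14, SE 0.15, adjusted p = 4.68e-06).

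Untreated day 4 libraries did not share that level with each other. The mitosis list lay at median log2 differences from day 0 of -1.39 and -0.01 in replicates 1 and 3 and -3.24 in replicate 2, against -4.79 to -3.72 in the treated libraries. MKI67 was at 162 and 448 CPM in untreated day 4 replicates 1 and 3 and 35.3 CPM in replicate 2. All 3 lay above the highest treated library.

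Inhibitors of the cycle rose and the machinery of ribosome production fell. Of 19 tested CDK inhibitor and p53 target genes 14 rose and 1 fell (median log2 difference 1.05). As median log2 differences from day 0, the list lay at 0.73 to 1.09 in the treated libraries. It lay at 0.94 and 0.17 in untreated day 4 replicates 1 and 3 and at 0.83 in replicate 2, so 2 of these untreated libraries were within the treated range. CDKN1A, which encodes the inhibitor p21, was at 516, 331 and 295 CPM at day 0 and 2896, 1894 and 2323 CPM with TGFb (log2 difference 2.64, SE 0.25, adjusted p = 5.58e-05), with untreated day 4 replicates 1 and 3 at 589 and 289 CPM. CDKN1B rose (log2 difference 0.78, adjusted p = 8.20e-04), and CCNG2 and RRM2B did too (log2 differences 1.78 and 1.58, adjusted p = 1.17e-04 and 8.41e-06). The member that fell was CDKN2C (log2 difference -4.80, SE 0.45, adjusted p = 5.20e-05, and -6.07 without TGFb replicate 3). MDM2, a p53 target and inhibitor, was not called (log2 difference 0.20, adjusted p = 0.22) but was when tested without TGFb replicate 2 (log2 difference 0.34, adjusted p = 0.0418). Of 31 ribosome biogenesis genes 30 fell and none rose (median log2 difference -1.11), 21 of them by at least 2-fold. This list lay at -1.30 to -1.01 in the treated libraries, as median log2 differences from day 0. It lay at -0.64 and 0.07 in untreated day 4 replicates 1 and 3 and at -1.27, within the treated range, in replicate 2. NCL, the abundant nucleolar protein gene, went from 1572, 1963 and 2085 CPM to 533, 635 and 716 CPM (log2 difference -1.58, SE 0.16, adjusted p = 7.22e-05), and NOLC1 from 192, 243 and 230.4 CPM to 56.8, 63.1 and 65.2 CPM (log2 difference -1.84, SE 0.11, adjusted p = 9.34e-06). NPM1, LYAR and MYBBP1A fell (log2 differences -1.06, -1.97 and -1.51, adjusted p = 1.76e-04, 9.81e-06 and 2.30e-05).

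**Figure D4:**
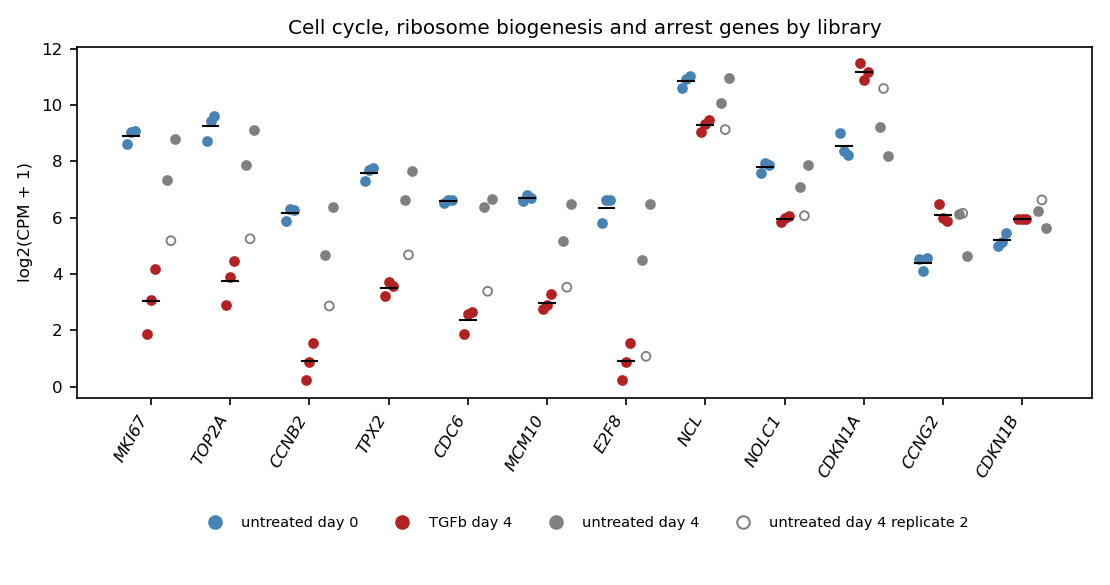
Levels of 12 cell cycle, ribosome biogenesis and arrest genes as log2(CPM + 1) in the same 9 libraries, with black bars at the means of the day 0 and TGFb groups. The 7 cycle genes at the left and NCL and NOLC1 fall in every treated library, and CDKN1A, CCNG2 and CDKN1B rise in every treated library.

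Interferon, cholesterol and cilium genes rose with TGFb, and all 3 untreated day 4 libraries lay within or above the treated range for these lists. Of 25 tested interferon response genes 18 rose and none fell (median log2 difference 1.47; 1 of 33 fell with all 24 libraries in the fit), of 21 cholesterol synthesis genes 15 rose and none fell (median 0.59), and of 34 primary cilium genes 18 rose and 5 fell (median 0.39). As median log2 differences from day 0, the interferon list lay at 1.23 to 1.51 in the treated libraries and at 1.89 and 1.57 in untreated day 4 replicates 1 and 3. The cholesterol list lay at 0.44 to 0.71 and 0.59 and 0.59, and the cilium list at 0.26 to 0.39 and 0.29 and 0.30. Untreated day 4 replicate 2 lay at 3.26, 0.67 and 0.32.

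IFI44, an interferon-induced gene, was at 8.5, 7.74 and 25.7 CPM at day 0 and 148, 183 and 161 CPM with TGFb (log2 difference 3.67, SE 0.42, adjusted p = 1.54e-04), and at 106 and 70.2 CPM in untreated day 4 replicates 1 and 3. ISG15, the ubiquitin-like interferon product, went from 4.49, 3.62 and 12.4 CPM to 50.5, 63.3 and 46.05 CPM (log2 difference 3.13, SE 0.41, adjusted p = 2.85e-04), below its 97.7 and 79.8 CPM in those untreated libraries. Day 0 replicate 3 was the highest day 0 library for both, and without it the IFI44 and ISG15 differences were 4.33 and 3.73. MX1, an antiviral GTPase gene, was at 6.36, 6.12 and 18.6 CPM and 8.03, 9.46 and 9.12 CPM and was not called (log2 difference -0.13, SE 0.43, adjusted p = 0.8), against 174 and 70.6 CPM in untreated day 4 replicates 1 and 3. Without day 0 replicate 3 its log2 difference was 0.51 (adjusted p = 0.0424). OAS1, SAMD9L, PARP14 and IFIH1 rose (log2 differences 2.51, 1.82, 1.93 and 1.23, adjusted p = 1.47e-04, 1.22e-05, 7.50e-05 and 9.07e-05).

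Of the cholesterol genes, SQLE and TM7SF2, which encode enzymes of sterol synthesis, rose (log2 differences 1.20 and 1.69, adjusted p = 8.87e-05 and 1.08e-04), as did INSIG1, the sterol sensor (log2 difference 1.55, adjusted p = 0.00131), and CYP51A1 (log2 difference 0.69, adjusted p = 0.00147). Of the cilium genes only 3 rose by at least 2-fold. TULP3, a carrier of receptors into the cilium, and ARL3, a ciliary GTPase, rose (log2 differences 1.01 and 1.32, adjusted p = 5.29e-05 and 2.85e-04), while CEP290 and TMEM231 of the transition zone fell (log2 differences -1.18 and -1.22, adjusted p = 9.46e-05 and 0.00198). GLI1, the hedgehog readout that depends on cilia, went from 0.553, 0.338 and 0.547 CPM to 7.84, 4.13 and 2.24 CPM (log2 difference 3.35, SE 0.52, adjusted p = 7.26e-04), and was at 6.72 and 0.829 CPM in untreated day 4 replicates 1 and 3.

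**Figure D5:**
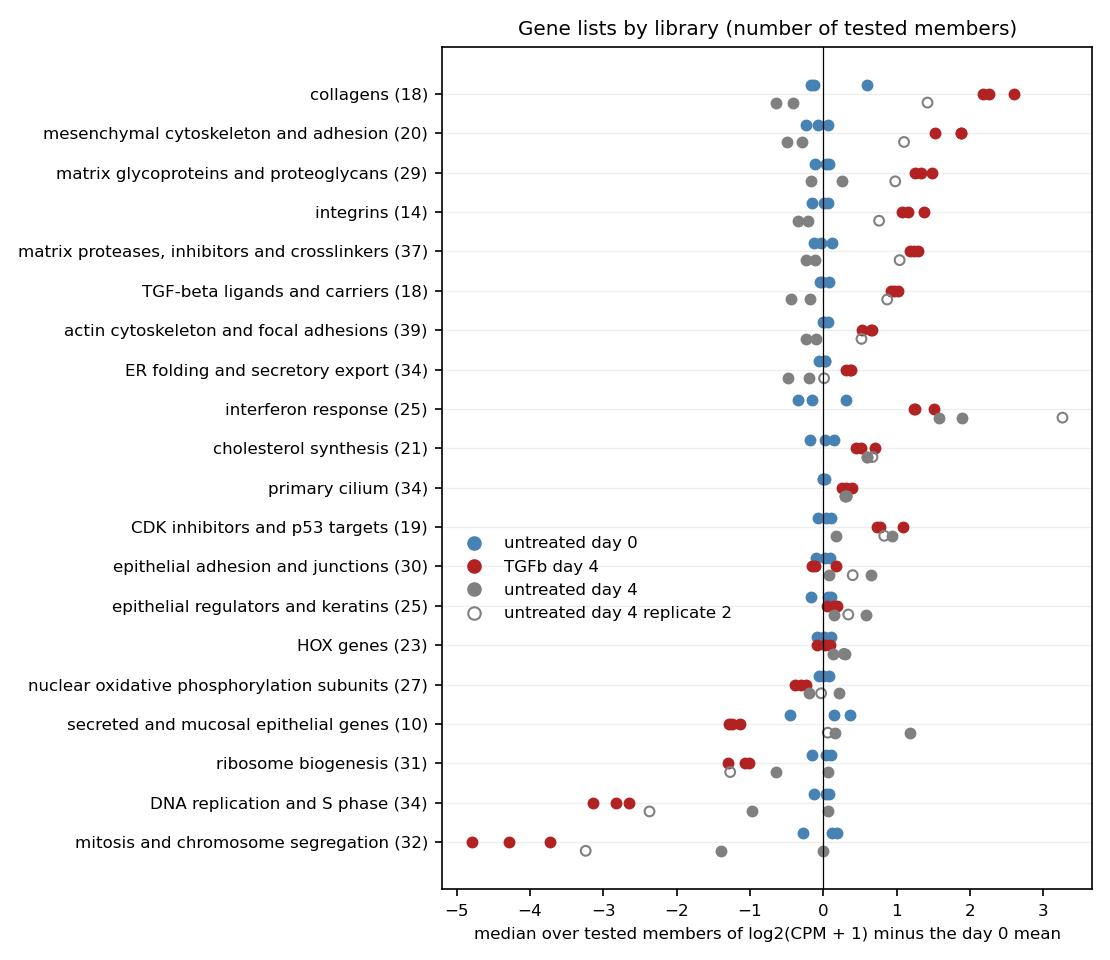
For 20 gene lists, the median over tested members of log2(CPM + 1) minus the day 0 mean, in each of 9 MDCK-NBL2 libraries (open grey symbols: untreated day 4 replicate 2). Collagen, mesenchymal and integrin lists are raised in treated libraries and not in untreated day 4 replicates 1 and 3, mitosis and replication lists are lowest in treated libraries, and interferon, cholesterol and cilium lists in all 3 untreated day 4 libraries lie within or above the treated range.

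Of 34 tested genes for folding and secretory export in the endoplasmic reticulum 20 rose, 12 of them at least 2-fold, and 5 fell (median log2 difference 0.33). With all 24 libraries in the fit 3 fell. SEC23A, a coat subunit of vesicles that leave the endoplasmic reticulum, was at 134, 113 and 124 CPM at day 0 and 369.5, 380.2 and 346 CPM with TGFb (log2 difference 1.56, SE 0.10, adjusted p = 8.75e-06). SEC24A, the cargo receptor gene LMAN1 and MIA3, which exports procollagen, rose (log2 differences 1.23, 0.66 and 1.23, adjusted p = 1.65e-05, 4.37e-04 and 5.58e-05). The membrane-bound factors CREB3L1 and CREB3L2, regulators of secretory capacity, rose (log2 differences 3.21 and 1.66, adjusted p = 6.64e-05 and 1.79e-05). The folding genes HSP90B1, PDIA4 and CRELD2 fell (log2 differences -0.58, -0.38 and -0.90, adjusted p = 0.0059, 0.0126 and 2.64e-04). HSPA5, the chaperone BiP, was lower (log2 difference -0.29, adjusted p = 0.0385), and 5 of 6 leave-one-out fits lost that call. Untreated day 4 replicates 1 and 3 lay at -0.48 and -0.20 for the list, on the other side of day 0 from the treated libraries at 0.31 to 0.38.

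Stress and energy genes were mixed. Of 20 ATF4 response genes 10 rose and 5 fell. As median log2 differences from day 0, the list lay at 0.23 to 0.50 in the treated libraries. It lay at 1.35 and 0.27 in untreated day 4 replicates 1 and 3 and at 0.82 in replicate 2, within or above the treated range. ATF3 and STC2 rose (log2 differences 2.98 and 3.88, adjusted p = 8.39e-05 and 4.17e-05), as did DDIT4 (log2 difference 3, adjusted p = 0.00256). TRIB3 and the cystine carrier gene SLC7A11 fell (log2 differences -1.40 and -2.77, adjusted p = 0.00464 and 2.09e-04), and ATF4 itself was not called (log2 difference -0.11, adjusted p = 0.598). Of 27 nuclear genes for oxidative phosphorylation 16 fell and 3 rose (median log2 difference -0.38), none by 2-fold. UQCRC1 and NDUFS1 fell (log2 differences -0.88 and -0.56, adjusted p = 1.33e-04 and 3.73e-04), while the 3 rises, NDUFA2, NDUFA8 and NDUFB3, were each lost in 4 or 5 of 6 leave-one-out fits, and with all 24 libraries in the fit 1 member rose. Glycolysis and hypoxia genes were near the background, with 8 of 28 higher and 7 lower (4 lower without TGFb replicate 1 or with all 24 libraries in the fit). HK2, the inducible hexokinase, and the lactate exporter gene SLC16A3 fell (log2 differences -1.59 and -1.29, adjusted p = 1.05e-04 and 1.48e-04), as did NDRG1 (log2 difference -1.16, adjusted p = 0.00325), but ALDOC, P4HA1 and EGLN3 rose (log2 differences 3.37, 1.33 and 1.61, adjusted p = 2.49e-04, 2.47e-04 and 5.38e-04). In the caveola list CAV1, which forms the coat, went from 349.8, 453 and 321 CPM to 114, 148 and 145 CPM (log2 difference -1.46, SE 0.16, adjusted p = 1.05e-04). CAV2 and CAVIN3 fell with it (log2 differences -0.64 and -1.46, adjusted p = 0.00148 and 2.66e-04), and the membrane repair genes ANXA6 and MYOF rose (log2 differences 1.46 and 0.72, adjusted p = 1.06e-05 and 3.27e-04). DYSF, also of membrane repair, was uneven at 5.32, 0 and 0.137 CPM and 43.01, 16.99 and 12.4 CPM (log2 difference 3.74, SE 1.10, adjusted p = 0.0165). The DYSF difference was 9.26 without day 0 replicate 1, 2.88 without day 0 replicate 2 and 3.03 without TGFb replicate 1 (adjusted p = 1.50e-04, 0.0226 and 0.0691), and the DESeq2 Wald test gave an adjusted p of 0.105.

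The tested genes of secretory and mucosal epithelium mostly fell. Of 10 tested members of 26 in the table, 9 fell and none rose (median log2 difference -1.40). The share of falls over all tested genes was 31.6%. CHST4 and LRG1 were near 0 with TGFb and passed the count filter through day 0 alone, so no rise could be called for them. The 2 shares are therefore not a like comparison. TFF1, a mucosal trefoil peptide gene, was at 254, 315 and 158 CPM at day 0 and 15.9, 20.9 and 16 CPM with TGFb (log2 difference -3.78, SE 0.27, adjusted p = 1.59e-05), and at 532 and 250.1 CPM in untreated day 4 replicates 1 and 3. CHST4, a sulfotransferase for mucin sugars, went from 3.94, 14.7 and 15.3 CPM to 0, 0 and 0.598 CPM (log2 difference -5.75, SE 0.94, adjusted p = 9.33e-04, and -5.04 without TGFb replicate 2). In those untreated day 4 libraries it was at 113 and 38.01 CPM. Without TGFb replicate 3 the treated group had no CHST4 counts. The fitted difference of -10.19 was then set by the prior count and does not estimate the size of the fall. LRG1, a secreted glycoprotein gene, had no counts in the treated libraries against 1.52, 5.54 and 7.66 CPM at day 0, at least 31.7-fold lower. TMPRSS2, a transmembrane protease gene too low to test, had 0.345, 1.52 and 3.15 CPM and then no counts, at least 9.55-fold lower. SPINK5, a protease inhibitor gene of stratified epithelium, was at 561, 2413 and 3638 CPM and 263, 191 and 199 CPM (log2 difference -3.34, SE 0.59, adjusted p = 0.00136), lowest at day 0 in replicate 1. More members could be tested in other fits: 13 of 14 fell without day 0 replicate 1, 10 of 14 without TGFb replicate 1, and 10 of 17 with all 24 libraries in the fit, where 1 rose.

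Kidney genes did not fall as a group. Of 18 tested members of 45 in the table, 9 rose and 4 fell (median log2 difference 0.66). PAX2, a kidney lineage factor, went from 6.36, 5.41 and 6.43 CPM to 1.53, 2.79 and 2.84 CPM (log2 difference -1.30, SE 0.26, adjusted p = 0.00258). AQP3, a basolateral water channel, and ATP6V1B1, a proton pump subunit of intercalated cells, fell (log2 differences -3.04 and -1.39, adjusted p = 0.00439 and 0.00107), AQP3 by a difference of -2.21 without day 0 replicate 2. SLC12A2, the basolateral sodium-potassium-chloride cotransporter, was at 164, 169 and 212 CPM and then 910.4, 703 and 564 CPM (log2 difference 2, SE 0.19, adjusted p = 5.20e-05). The carbonic anhydrase gene CA12 and the fibrocystin gene PKHD1 rose (log2 differences 2.69 and 1.71, adjusted p = 1.99e-05 and 3.92e-05). SLC22A2, an organic cation carrier, had no counts at day 0 and 17.01, 5.83 and 3.14 CPM with TGFb, at least 134-fold higher. Of 23 tested HOX genes 7 rose and none fell (median log2 difference 0.07), while 1 of 25 fell without TGFb replicate 1 and 2 of 27 with all 24 libraries in the fit. All 7 lie in the HOXA cluster, of which 11 members were tested. HOXA13, the most posterior of them, was at 6.57, 6.05 and 7.39 CPM at day 0 and 22.2, 18.6 and 16.4 CPM with TGFb (log2 difference 1.53, SE 0.16, adjusted p = 9.19e-05), and HOXA9 was not called (log2 difference -0.05, adjusted p = 0.706). None of the 12 tested members of the HOXB, HOXC and HOXD clusters was called.

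Genes better known from neurons included large rises. Of 17 tested members of 40 in the table, 10 rose and 3 fell (median log2 difference 0.94). MAP1B, a microtubule-associated protein gene of growing axons, was at 5.39, 1.35 and 0.547 CPM at day 0 and 744, 463 and 524 CPM with TGFb (log2 difference 7.84, SE 0.57, adjusted p = 1.77e-05). NPTX2, a secreted synaptic pentraxin gene outside the list, went from 6.29, 2.095 and 1.505 CPM to 711, 499.5 and 447 CPM (log2 difference 7.36, SE 0.47, adjusted p = 1.05e-05). MAP2 and the guidance gene NTN1 rose (log2 differences 1.83 and 2.16, adjusted p = 0.00256 and 3.16e-04), and the guidance genes SEMA3C, UNC5B and SLIT2 fell (log2 differences -1.18, -1.16 and -2.39, adjusted p = 8.51e-04, 0.00107 and 0.0147). The SLIT2 difference was -1.76 without day 0 replicate 1, and without TGFb replicate 2 it was -1.92 and not called (adjusted p = 0.0605). The glutamate carrier gene SLC1A1 had 1 high day 0 library, with 12.5, 0.372 and 0.547 CPM at day 0 and 41.5, 20.1 and 57.4 CPM with TGFb (log2 difference 3.13, SE 1.00, adjusted p = 0.0232). Without day 0 replicate 1 its log2 difference was 6.54, and without day 0 replicate 2 it was 2.43. The call was lost without day 0 replicate 3, TGFb replicate 1 or TGFb replicate 3 (adjusted p = 0.058, 0.0506 and 0.0722). THRB, the thyroid hormone receptor beta gene, also outside the lists, rose from 0.276, 0.0338 and 0 CPM to 24.9, 22.1 and 20.04 CPM (log2 difference 7.67, SE 0.42, adjusted p = 6.42e-06, and 6.82 without day 0 replicate 2). The MAP1B, NPTX2, MAP2 and THRB differences were 8.94, 8.14, 2.43 and 9.19 without day 0 replicate 1.

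Markers of other cell types and of kidney epithelium bear on what the libraries hold. Among 6 kidney epithelial markers in the table, CDH1, EPCAM, PAX8 and PAX2 fell, and CDH16 was at or near 0 in all 6 libraries. Without TGFb replicate 1, or with all 24 libraries in the fit, 2 of these markers were called lower. Their summed level was 1547 to 1926 CPM at day 0 and 1264 to 1382 CPM with TGFb. Of 11 leukocyte markers 2 could be tested and neither was called, but 1 was called higher without day 0 replicate 1, without TGFb replicate 1 and with all 24 libraries in the fit. LCP1, an actin-bundling gene of leukocytes too low to test, had 2 counts over the day 0 group and 39 with TGFb (0.0691, 0 and 0.137 CPM, then 2.49, 1.21 and 2.39 CPM). Their sum was 3.28 to 3.80 CPM at day 0 and 5.10 to 6.69 CPM with TGFb, with CD3D, CD3E, MS4A1 and CD79A at 0 counts and PTPRC at 0 with TGFb. Of 10 endothelial markers 1 was tested, FLT1, which rose (log2 difference 0.87, adjusted p = 3.25e-04). The endothelial sum was 184 to 218 CPM at day 0 and 349 to 424 CPM with TGFb, nearly all from FLT1, with EMCN at 0 and PECAM1 and CDH5 at most 0.299 CPM. The 10 fibroblast markers summed to 14.8 to 73.6 CPM at day 0 and 2088 to 4927 CPM with TGFb, through COL1A1, COL1A2 and PDGFRA, which all rose, while FAP, TCF21 and PI16 had 0 counts in all 6 libraries and PDGFRB none with TGFb. The part of these markers in the other results was not tested.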

How the data were processed

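Gene expression was measured by stranded mRNA sequencing in 24 libraries, of which the 6 described above enter the tests. The authors deposited one table of gene counts, whole numbers for 32704 genes with no further normalization. The genome build was CanFam3.1 and the software FastQC, RSEM 1.3.0 and STAR 2.5.3a, per the submitters' processing notes. The sources used here do not give their order, the annotation, the strand setting or any rounding. How reads shared between near-identical genes were split is likewise not given, so paralogs are less certain.

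Genes with enough counts (edgeR's filterByExpr, minimum count 10, minimum total 15) were tested in the 6 libraries with edgeR 4.0.16 (R 4.3.3): a quasi-likelihood F-test, 2-sided, with library sizes scaled by trimmed mean of M values over all 24 libraries, 4 residual degrees of freedom and Benjamini-Hochberg adjustment over all 11347 tested genes, called at 0.05. Standard errors are the log2 difference divided by the square root of F. Fitted differences use a prior count of 0.125. A group with no counts was set at a floor of 3 counts. The precision of low genes is limited by depth, which was 6134929 to 27066739. The procedure was tested on simulated counts. The replicate numbers were checked for pairing by correlating deviations from group means (0.24, 0.13 and 0.09 for replicates 1, 2 and 3) and were not taken as pairs.

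The comparison, the gene lists and the genes named were chosen with earlier results of these data known. Named genes are all tested EMT factors, the 10 largest rises and falls (called genes without overlap, with a mean of 10 CPM or more in their higher group), up to 3 called members a direction of each list by adjusted p, of which the text gives most, and 18 fixed genes. Some of these genes are not reported here. ACTA2, TAGLN, CLU, KRT14, KRT19, COL12A1, COL3A1, COL5A2, COL4A1, LAMA4, LAMA3, ITGA5, ITGAV, ITGB6, FLNC, MYH9, GLI1, IL1RL1, SPINK5, NQO1, PTGR1, HMGA1, DYSF, FSTL1, LOX, LOXL2, PLOD2, SKIL, PMEPA1, SMAD3, IFI44, ISG15, OAS1, MX1, TGFB2, TGFB3, CREB3L1, MIA3, HSPA5, HOXA9, TOP2A, CDKN1B, MDM2, SLC22A2, LRG1, INSIG1, NCL, NPM1, ESRP1, ESRP2, CLDN3, OCLN, WNT5B, WNT7A, AXIN2, IL1A, PTGS2, MMP9, MMP14, PLAU, ID4, SLC1A1, MAP2, NPTX2, PTHLH, MT-CO1, THRB, NDRG1, EGLN3, TMPRSS2, ZEB2, ARL3, ATF4, DDIT4, CYP51A1, PODXL, LMAN1, MALL, BMP7, GCLM and TXNRD1 were picked after their values were seen. Alternatives were DESeq2 1.42.0 size factors and Wald test, scaling over the 6 libraries, no filter, a replicate block, fits to 24 or 21 libraries, a 2-fold minimum and leaving out each library. All columns of other groups were left out of the tests.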

Additional observations from a re-analysis of the deposited data

Results flagged for a closer look

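Of the 10 genes with the largest rises, 9 also had signal in untreated MDCK-NBL2 day 4 replicate 2, a library labelled untreated that enters no test here, above the highest level in untreated day 4 replicates 1 and 3. In replicate 2 COL1A1 was at 596.2 CPM and TGFBI at 1582.7 CPM, against 0 and 0 CPM and 0.326 and 0.237 CPM in the other 2 libraries. KCNK12 was at 7.133 CPM and TAGAP at 5.618 CPM there, against 0 and 0.118 CPM and 0 and 0 CPM. PWWP3B was at 2.476 CPM and ACTG2 at 1.552 CPM, against 0.122 and 0 CPM and 0.0407 and 0 CPM. GASK1B was at 1.22 CPM, SLC8A3 at 1.183 CPM and SLC10A4 at 1.183 CPM, and none of these 3 had a count in the other 2 libraries. All of these levels lay below the lowest TGFb-treated library.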

How the results depend on the processing

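The main counts were 3851 genes higher and 3586 lower. With a 2-fold minimum they were 1719 and 1449. They were 3936 and 3504 with DESeq2 size factors in edgeR, 3707 and 3739 with scaling over the 6 libraries, 3592 and 3454 with the DESeq2 Wald test, 4105 and 3678 with no filter on low counts, 3884 and 3375 with all 24 libraries in the fit, and 4176 and 3646 with 21 (without the untreated day 4 group). With the replicate block they were 3876 and 3589. The block also called CDH2 lower (adjusted p = 0.0194) and ZEB1, COL4A1, KRT19, PTGS2 and TGFBR1 higher (0.00419, 0.00363, 0.0273, 0.0117 and 0.0119), and it did not call NDUFB3 or MT-CO1 (0.0614 and 0.0548). TGFb replicates 1 and 2 correlated best with the day 0 library of their own number (0.24 and 0.13). TGFb replicate 3 correlated best with day 0 replicate 2 (0.13, against 0.09 with its own number). Correlations this small and close cannot decide whether the numbers pair the samples. Leaving out each library in turn gave 3366 to 3848 higher and 3080 to 3649 lower. In every alternative, all calls shared with the main counts had the same direction. Of the 256 named genes that were called, 241 were called in each leave-one-out fit. Many of them were picked for large differences, small adjusted p or after their values were seen, so this share does not describe all called genes. Of all 7437 called genes, the single leave-one-out fits shared 6345 to 7042, and the number kept in every such fit was not counted. Differences of 4 uncalled genes changed sign: leaving out each library in turn, SNAI1 ranged from -0.12 (without TGFb replicate 1) to 0.21, FOXC2 from -0.085 (without TGFb replicate 1, and -0.057 without day 0 replicate 2) to 0.17, ATF4 from -0.23 to 0.071 (without TGFb replicate 3) and MX1 from -0.44 to 0.51 (without day 0 replicate 3). The causes were not tested. With 3 libraries a group and as few as 6134929 counts, changes in genes of a few CPM rest on few reads, and genes under the count minimum were not tested. Day 0 and TGFb also differ in days of culture, and these differences cannot be told apart from treatment.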

Other observations

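Targets of NRF2, the transcription factor that responds to oxidative stress, were mostly lower with TGFb. Of 19 tested table entries in a set picked after the values were seen, 13 fell, 6 of them at least 2-fold, and 4 rose (median log2 difference -0.76). NQO1, a quinone reductase gene, was at 1269.7, 986 and 954 CPM at day 0 and 229.6, 205 and 430 CPM with TGFb (log2 difference -1.89, edgeR adjusted p = 5.38e-04), and at 243 and 424 CPM in untreated day 4 replicates 1 and 3. PTGR1, a prostaglandin reductase gene, went from 1460.4, 1169 and 773 CPM to 307, 226 and 254 CPM (log2 difference -2.11, adjusted p = 1.20e-04), and was at 602 and 920 CPM in those untreated libraries, which overlaps day 0. GCLM and TXNRD1, genes of glutathione and thioredoxin metabolism, had log2 differences of -1.31 and -0.83 (adjusted p = 4.20e-05 and 0.0114, the latter 0.0728 with all 24 libraries in the fit). Both were lower than day 0 in untreated day 4 replicates 1 and 3 as well, at 14.4 and 24.98 CPM and 87.2 and 225 CPM. The set's other members moved both ways: ME1 rose by 1.56 on the log2 scale and SLC7A11 fell by 2.77, with SLC7A11 at 59.5 and 32.6 CPM in untreated day 4 replicates 1 and 3 against 23.1 to 55.4 CPM at day 0.

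Mitochondrially encoded genes, also picked after the values were seen, rose in 10 of 13 members and fell in none (median log2 difference 0.56), while 16 of 27 nuclear genes of oxidative phosphorylation fell. MT-CO1, a cytochrome c oxidase subunit gene, was at 14230.1, 15269 and 17776 CPM at day 0 and 29023, 18771 and 21839 CPM with TGFb (log2 difference 0.56, adjusted p = 0.0433), a call that 4 of 6 leave-one-out fits lost. The 13 genes took up 5.42%, 5.54% and 5.92% of counts at day 0 and 8.21%, 5.32% and 6.26% with TGFb, shares that overlap between the groups, and 8.94% and 8.30% in untreated day 4 replicates 1 and 3. CLU, which encodes the secreted chaperone clusterin, was at 1170.1, 1148 and 2494 CPM at day 0 and 13662, 8345 and 8384 CPM with TGFb (log2 difference 2.66, adjusted p = 3.46e-04), and at 5546 and 1749 CPM in those untreated libraries.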
